A study of Mus musculus with 2 samples.

Results

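The granzymes and perforin were followed as 10 genes, Gzma, Gzmb, Gzmc, Gzmd, Gzme, Gzmf, Gzmg, Gzmk, Gzmm and Prf1, taken by symbol from the 32285 genes of the count matrices, and all 10 were present. The cells were live CD45-positive immune cells from liver tumours of Hepa1-6, a mouse hepatoma line, grown orthotopically in wild-type C57/BL6 mice. They had been enriched with magnetic CD45 beads and then sorted with a viability dye. The 2 groups differed in the antibody given: anti-PD-1, which blocks an inhibitory receptor of T cells, and, as its control, an isotype antibody. For each antibody there was 1 droplet library of 3′ tags with unique molecular identifiers (UMIs). The labels do not say how many mice were pooled, and with 1 library each no test between the antibodies was possible. Every interval below is a 95% interval for counting error only.

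Perforin, encoded by Prf1, forms pores through which granzymes from the granules of killer lymphocytes reach the cytosol of a target cell. Granzyme B cleaves caspases and their substrates after aspartate residues, granzyme A and granzyme K are tryptases, and granzyme M cuts after methionine or leucine. Granzymes C to G are rodent genes next to Gzmb, best known from mouse killer cells after strong or prolonged stimulation.

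Of the 10 genes, 6 lie in a cluster on the minus strand of chromosome 14. On mm10 (GENCODE vM21), Gzmb, Gzmc, Gzmd, Gzme, Gzmf and Gzmg fall within chr14:56117626-56262260, a span of 144.6 kb, and each has 5 exons. Gzma (chr13:113093825-113100981) and Gzmk (chr13:113171608-113225908) lie near each other on the minus strand of chromosome 13. Gzmm (chr10:79689020-79695261) and Prf1 (chr10:61297833-61304680, 3 exons) are on the plus strand of chromosome 10. The spliced transcripts of Gzmd and Gzme were 94.8% identical over their aligned bases, and those of Gzmb and Gzmc 77.6%. Reads of near-identical genes can be misplaced: of 411 windows of 90 bases in the last 500 bases of each transcript, 7 (1.70%) were shared between Gzmd and Gzme, and 0 by any other member. Counts of Gzmd and Gzme are therefore uncertain between those genes, while the members with most of the UMIs shared no such window.

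The 250 bases before the RefSeq start of the members that the results turn on are shown 5′ to 3′ (GRCm38.p6), Gzmb at chr14:56262335-56262584, Gzmc at chr14:56234658-56234907, Gzmg at chr14:56159580-56159829, Gzma at chr13:113100982-113101231 and Gzmk at chr13:113180966-113181215 (all minus strand), and Prf1 at chr10:61297586-61297835 (plus strand). They are printed because these genes, several of them in shared loci, differed in the cell types that held them. Capitals mark matches, on either strand, to 6 motifs that are spelled out after the sequences.
Gzmb: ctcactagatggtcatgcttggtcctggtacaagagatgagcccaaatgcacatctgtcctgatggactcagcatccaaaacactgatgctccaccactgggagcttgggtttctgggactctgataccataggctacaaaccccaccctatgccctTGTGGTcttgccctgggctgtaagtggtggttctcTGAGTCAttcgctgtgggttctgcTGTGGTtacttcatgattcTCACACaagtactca
Gzmc: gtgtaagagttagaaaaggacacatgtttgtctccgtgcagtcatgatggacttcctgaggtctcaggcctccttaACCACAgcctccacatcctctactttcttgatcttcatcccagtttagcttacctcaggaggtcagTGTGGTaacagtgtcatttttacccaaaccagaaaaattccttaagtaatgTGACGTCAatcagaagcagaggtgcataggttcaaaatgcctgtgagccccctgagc
Gzmg: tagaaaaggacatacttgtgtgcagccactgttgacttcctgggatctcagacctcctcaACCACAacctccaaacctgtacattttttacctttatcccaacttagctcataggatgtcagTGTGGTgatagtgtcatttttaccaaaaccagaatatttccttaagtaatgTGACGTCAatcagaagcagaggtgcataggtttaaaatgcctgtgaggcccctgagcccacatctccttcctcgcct
Gzma: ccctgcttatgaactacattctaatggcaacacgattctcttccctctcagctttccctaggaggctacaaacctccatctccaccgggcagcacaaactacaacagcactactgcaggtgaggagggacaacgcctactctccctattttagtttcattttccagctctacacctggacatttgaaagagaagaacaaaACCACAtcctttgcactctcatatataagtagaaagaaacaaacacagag
Gzmk: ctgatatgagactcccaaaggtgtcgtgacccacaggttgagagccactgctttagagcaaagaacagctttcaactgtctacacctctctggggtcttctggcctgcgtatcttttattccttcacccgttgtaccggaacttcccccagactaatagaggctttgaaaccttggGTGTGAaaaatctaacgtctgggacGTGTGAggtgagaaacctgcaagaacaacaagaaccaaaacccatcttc
Prf1: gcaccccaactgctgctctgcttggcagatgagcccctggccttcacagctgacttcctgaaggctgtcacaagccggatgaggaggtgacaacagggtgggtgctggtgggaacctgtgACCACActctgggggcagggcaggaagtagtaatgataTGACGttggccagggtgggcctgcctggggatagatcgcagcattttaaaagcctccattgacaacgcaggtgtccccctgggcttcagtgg
The Runx motif TGTGGT was in 9 of the 10 member promoters, all but Gzmk, and in 14.1% of 32851 mouse promoters of this length. The T-box half-site TCACAC was in 2 of 10, Gzmb and Gzmk (12.3% of all promoters), and the AP-1 motif TGANTCA in 1, Gzmb (6.75%). The half-site of the cyclic AMP response element, TGACG, was in 4, Gzmc, Gzmf, Gzmg and Prf1 (17.8%), and in Gzmc, Gzmf and Gzmg matches on both strands overlap in 1 palindrome. The STAT motif TTCNNNGAA was in 1, Gzmm (7.02%), and the promoter box TATAAA in 0 of 10 (12.4%). The windows of Gzmc, Gzmd, Gzme, Gzmf and Gzmg were 84.4% to 95.6% identical over their aligned bases, so they are not separate observations, and a match is a run of letters, not a site shown to be bound.

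The anti-PD-1 library held 10149 barcodes and 72148493 UMIs, and the isotype library 9683 barcodes and 67520433 UMIs. After filters and doublet removal, 9701 and 9278 cells were kept, with a median of 6301 and 6113 UMIs. Of the barcodes, 140 occurred in both libraries. Cells were gated by T, NK, CD4, CD8, Foxp3 and Trdc marker genes, none of them a member. The gates held 192 anti-PD-1 and 68 isotype CD8 T cells, 172 and 193 conventional CD4 T cells, 70 and 57 regulatory T cells, 32 and 40 γδ T cells, 105 and 124 T cells that the markers left unresolved, and 60 and 67 NK cells. CD8 T cells made up 1.98% of kept cells (1.71% to 2.28%) under anti-PD-1 and 0.733% (0.570% to 0.928%) under isotype. Cd8a, which with Cd8b1 sets the CD8 T gate, was detected in 94.8% and 89.7% of the cells in that gate. In the NK gate Cd3e was at 0 in both libraries, while the other 3 T genes were detected in 15% of anti-PD-1 and 26.9% of isotype cells and summed to 87.2 and 132 CPM. Eomes was in 71.7% and 77.6% of cells, against Itga1, a marker of type 1 innate lymphoid cells, in 8.33% and 8.96%.

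Nearly all transcripts of Gzma, Gzmb, Gzmk and Prf1 in the anti-PD-1 library sat in T and NK cells, and each gene had its own distribution over the subsets. The gates held 96.7%, 96.7%, 93.3% and 96.3% of their kept UMIs, in that order, against 95.6%, 78.8%, 99.4% and 55.5% in the isotype library. Levels are given as CPM, a gene's UMIs per 1000000 UMIs of the gate, and an order between subsets is given only where counting intervals are separate. Gzma was highest in NK cells of both libraries, at 5333 CPM (5136 to 5537) under anti-PD-1 and 3610 CPM (3455 to 3771) under isotype. CD8 T cells held 1843 and 773 CPM of it, unresolved T cells 1183 and 195 CPM, γδ T cells 209 and 1824 CPM, conventional CD4 T cells 53.5 and 20.6 CPM, and regulatory T cells 9.93 and 1.99 CPM. Gzma was thus an NK and CD8 transcript that was low in CD4 lineages, and the high isotype value in γδ T cells came from 399 UMIs in 1 cell.

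Gzmb had a different order in each library. In the anti-PD-1 library it was highest in CD8 T cells (2454 CPM, 2391 to 2518), then NK cells (1803 CPM), unresolved T cells (881 CPM) and regulatory T cells (727 CPM), with γδ T cells (412 CPM) and conventional CD4 T cells (405 CPM) not apart. In the isotype library it was highest in regulatory T cells (1562 CPM, 1455 to 1675), then NK cells (1321 CPM), with γδ T cells (1068 CPM) and CD8 T cells (941 CPM) not apart, and last came unresolved T cells (338 CPM) and conventional CD4 T cells (195 CPM). The isotype order rests on few cells: 3 regulatory T cells held 73.2% of the Gzmb UMIs of their gate, and 1 NK cell held 56.3% of those of its gate. By the median cell, CD8 T cells stood first of CD8 T, NK, regulatory T and conventional CD4 T cells under anti-PD-1. Under isotype the medians of CD8 T, NK and regulatory T cells lay close together, and no interval was taken for them. Gzmb was detected in 54.4%, 58.2% and 57.9% of these isotype cells, in that order. The median CD8 T cell held 10.6 UMIs of Gzmb per 10000 UMIs of the cell under anti-PD-1 and 2.06 under isotype, the median NK cell 1.88 and 1.79, the median regulatory T cell 1.84 and 1.77, and the median conventional CD4 T cell 0.

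Gzmk was a CD8 and CD4 T cell transcript. It was at 372 and 206 CPM in CD8 T cells, 254 and 72.2 CPM in conventional CD4 T cells, 100 and 54.0 CPM in unresolved T cells, 31.5 and 49.6 CPM in regulatory T cells and 15.5 and 17.9 CPM in NK cells, in the anti-PD-1 and isotype libraries. In γδ T cells no UMI of Gzmk was found in 32 anti-PD-1 or 40 isotype cells, which allows a share of cells with a UMI of up to 9.38% and 7.50%. In the isotype library conventional CD4, unresolved and regulatory T cells did not differ beyond their intervals, nor did regulatory T and NK cells in either library. Prf1 was at 838 and 622 CPM in NK cells and at 166 and 71.5 CPM in CD8 T cells, and the other subsets lay between 41.7 and 92.1 CPM under anti-PD-1 and between 7.94 and 65.0 CPM under isotype. The perforin intervals of neighbouring subsets below CD8 T cells overlapped in the anti-PD-1 library, and those of CD8 and γδ T cells overlapped in the isotype library.

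**Figure D1:**
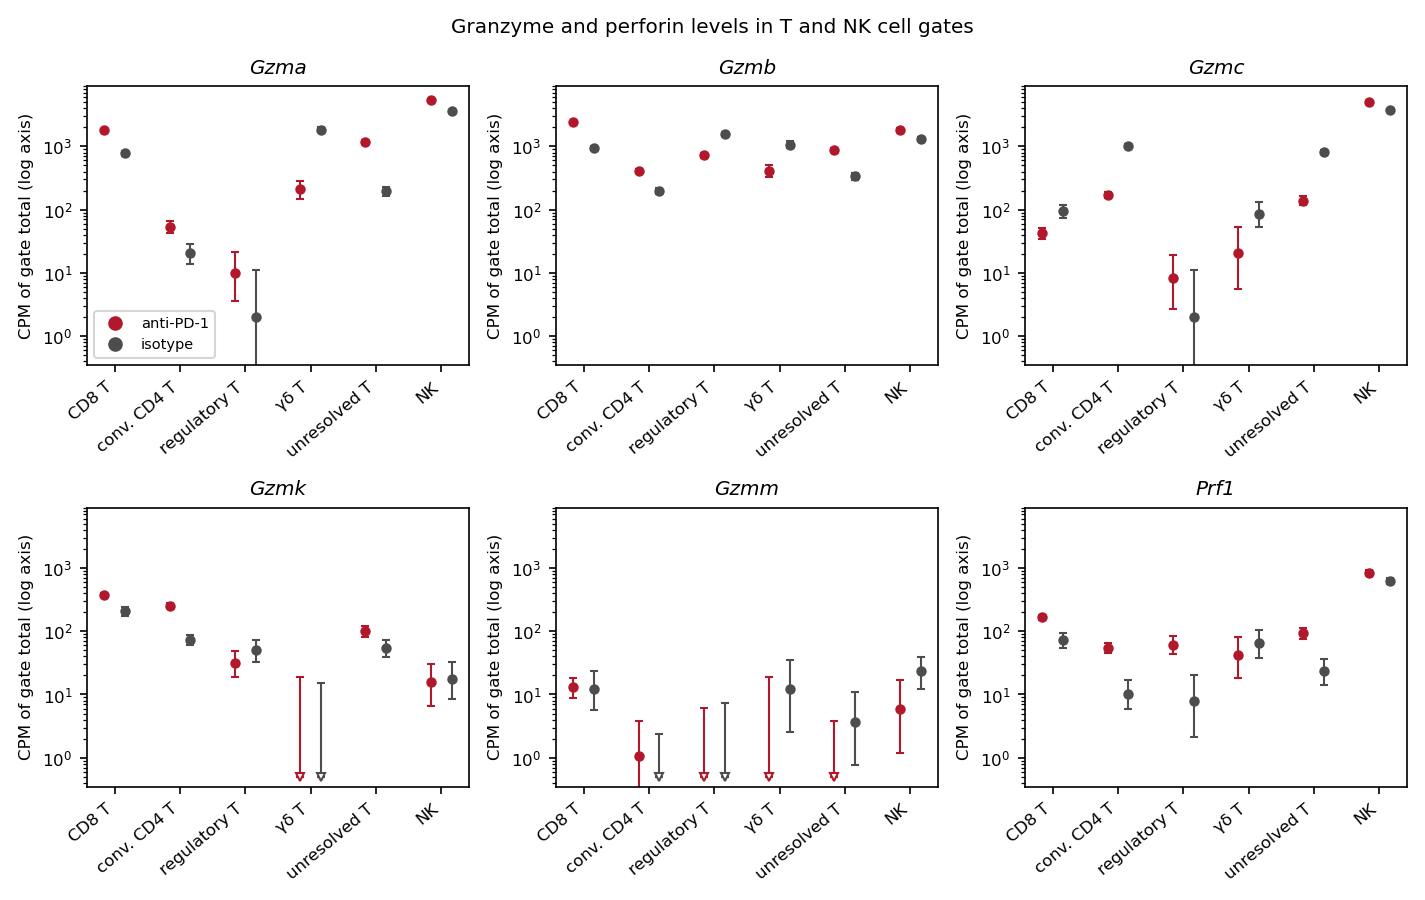
Level of 6 of the genes in each gate, in CPM of the gate total on a log axis, for the anti-PD-1 library (red, left) and the isotype library (grey, right); bars are 95% Poisson intervals, cover counting error only, and open triangles are upper limits where no UMI was found. NK cells stand highest for Gzma, Gzmc and Prf1 in both libraries, and CD8 T cells for Gzmk.

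In CD8 T cells, Gzmb, Gzma and Prf1 rose in the anti-PD-1 library. A gene is called changed when its log2 ratio of CPM, anti-PD-1 over isotype, is at least 1 in size with an interval that leaves out 0, among genes with at least 10 UMIs over both libraries in the gate. In CD8 T cells 7 of the 10 members could be read by this rule, and 3 were called higher and 1 lower, where 2.8% of the 9570 genes tested were called higher and 1.35% lower. The median log2 ratio of these 7 was 0.85, beside 0.10 over all genes tested. Summed over the 10 genes, the level was 4895 CPM (11618 UMIs) under anti-PD-1 and 2099 CPM (1526 UMIs) under isotype, a log2 ratio of 1.22 (1.14 to 1.3). Its size depended on how cells were weighted: it was 0.67 with each cell thinned to 1000 UMIs and 0.77 as a mean over cells.

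Gzmb in CD8 T cells had 5824 UMIs (2454 CPM) under anti-PD-1 and 684 UMIs (941 CPM) under isotype, a log2 ratio of 1.38 (1.27 to 1.5). It was detected in 160 of 192 cells (83.3%, 77.3% to 88.3%) and in 37 of 68 cells (54.4%, 41.9% to 66.6%). With cells thinned, Gzmb was in 53.1% (45.8% to 60.3%) and 37.3% (25.8% to 49.99%), so at equal depth its intervals overlapped. Level and unthinned share of positive cells were thus both higher under anti-PD-1. The median CD8 T cell with a Gzmb UMI held 15.5 UMIs of it under anti-PD-1 and 10 under isotype.

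Gzma had 4374 UMIs (1843 CPM) in anti-PD-1 and 562 UMIs (773 CPM) in isotype CD8 T cells, a log2 ratio of 1.25 (1.13 to 1.38). It was detected in 98 of 192 cells (51.0%, 43.7% to 58.3%) and 19 of 68 cells (27.9%, 17.7% to 40.1%), and after thinning in 36.5% and 16.4%. In the isotype library 185 of the 562 UMIs were in 1 cell, and without the highest cell of each library the ratio was 1.70. It was 0.35 with cells thinned to 1000 UMIs, with an interval that holds 0, and 0.59 in non-cycling cells. The size of the Gzma difference thus varied several-fold with the weight given to deep and cycling cells.

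Prf1 had 394 UMIs (166 CPM) and 52 UMIs (71.5 CPM), a log2 ratio of 1.21 (0.79 to 1.66), and was detected in 102 of 192 anti-PD-1 cells (53.1%, 45.8% to 60.4%) and 21 of 68 isotype cells (30.9%, 20.2% to 43.3%). In non-cycling cells its ratio was 0.51 (-0.07 to 1.11), an interval that holds 0. Gzmk had 882 UMIs (372 CPM) and 150 UMIs (206 CPM), a log2 ratio of 0.85 (0.60 to 1.11) that missed the size required for a call. It was nevertheless in 135 of 192 anti-PD-1 cells (70.3%, 63.3% to 76.7%) and 31 of 68 isotype cells (45.6%, 33.4% to 58.1%), and in non-cycling CD8 T cells its log2 ratio was 1.75 (1.3 to 2.23). The median depth was 10336 UMIs per CD8 T cell under anti-PD-1 against 7871 under isotype. After thinning, Gzmk was in 27.1% (20.9% to 34.0%) and 17.9% (9.61% to 29.2%) of cells and Prf1 in 11.5% (7.32% to 16.8%) and 4.48% (0.933% to 12.5%), so at equal depth the intervals of both genes overlapped.

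Gzmc in CD8 T cells was called lower (101 UMIs and 42.6 CPM in the anti-PD-1 library, 69 UMIs and 94.9 CPM in the isotype library, log2 ratio -1.16, -1.61 to -0.69), but 64 of the 69 isotype UMIs were in 1 cell. Without the highest cell of each library the ratio was 2.26, in the other direction. The gene was in 14 of 192 cells (7.29%) and 5 of 68 cells (7.35%). Gzmm, granzyme M, had 31 and 9 UMIs in CD8 T cells, a log2 ratio of 0.08 (-1.03 to 1.33). Gzmf had 12 UMIs in 3 anti-PD-1 cells and 0 in isotype cells, and Gzmd, Gzme and Gzmg had none in CD8 T cells of either library, which, taking 3 cells as the limit of a count of 0, allows a UMI in up to 1.56% and 4.41% of cells.

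Cycling cells made up 44.3% of CD8 T cells under anti-PD-1 and 26.5% under isotype. In non-cycling cells alone the summed log2 ratio was 0.86. Gzmb was higher in cycling than in non-cycling CD8 T cells of both libraries, at 2758 and 1912 CPM under anti-PD-1 (0.53, 0.45 to 0.61) and at 1107 and 778 CPM under isotype (0.51, 0.29 to 0.73). Gzma was at 1992 CPM in cycling and 1578 CPM in non-cycling anti-PD-1 cells (0.34) but at 494 and 1048 CPM in isotype cells (-1.09, -1.35 to -0.83), and 185 UMIs of the isotype value came from 1 non-cycling cell. The 7 myeloid genes used as a limit summed to 304 CPM in anti-PD-1 CD8 T cells, with 7 of 7 detected, and to 70.2 CPM in isotype CD8 T cells, with 4 of 7 detected and C1qa, C1qb and C1qc at 0. With the myeloid limit lowered to 0.25% of a cell's UMIs the summed ratio was 1.25. The 5 NK genes summed to 35.8 and 75.7 CPM in these cells, with Klra8 and Klra4 at 0 under isotype, and their part in the result was not tested.

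**Figure D2:**
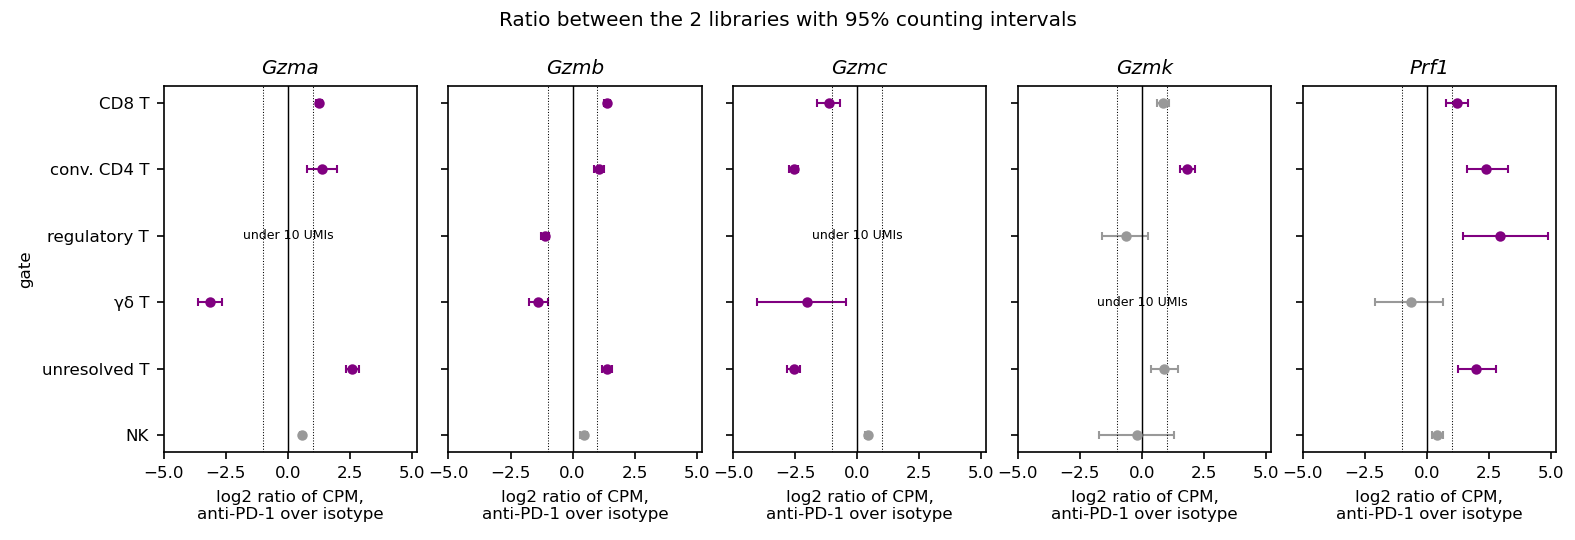
Log2 ratio of CPM, anti-PD-1 over isotype, of 5 genes in each gate, with 95% conditional binomial intervals for counting error only; purple points are called, grey points are not, and dotted lines mark a ratio of 1 in size. CD8 T cells lie to the right for Gzma, Gzmb and Prf1, and conventional CD4 and unresolved T cells lie far to the left for Gzmc.

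CD8 T cells were also split by Havcr2, an inhibitory receptor of exhausted T cells, and Tcf7, a transcription factor of stem-like T cells. Cells with a Tcf7 UMI and no Havcr2 UMI (39 anti-PD-1 and 24 isotype cells) held less Gzmb than Havcr2-positive cells (60 and 18 cells) of the same library. In the anti-PD-1 library the Tcf7-positive cells held 880 CPM and the Havcr2-positive cells 3044 CPM, a log2 ratio of -1.79 (-1.96 to -1.63). In the isotype library they held 130 and 1825 CPM, a ratio of -3.81 (-4.38 to -3.29). Prf1 followed the same split, at 34.2 CPM in Tcf7-positive and 293 CPM in Havcr2-positive cells of the anti-PD-1 library (-3.10) and at 16.2 and 142 CPM in the isotype library (-3.13). Gzma was also lower in Tcf7-positive cells, with ratios of -0.91 (-1.10 to -0.73) in the anti-PD-1 and -5.45 (-6.78 to -4.39) in the isotype library. In the anti-PD-1 library it was highest in cells with neither Tcf7 nor Havcr2 (2690 CPM), above Havcr2-positive cells (1436 CPM). Gzmk differed less than these 3 genes, with ratios of -0.52 (-0.87 to -0.18) in the anti-PD-1 and -0.49 (-1.18 to 0.19) in the isotype library. Gzmm was the exception: 15 UMIs (39.4 CPM) in Tcf7-positive and 4 UMIs (3.93 CPM, all in 1 cell) in Havcr2-positive anti-PD-1 cells, a ratio of 3.33 (1.67 to 5.37), against 4 and 3 UMIs in the isotype library, too few to read. The Tcf7-positive cells were shallower, with a median of 8390 UMIs in the anti-PD-1 and 7550 in the isotype library, against 14398 and 10522 in Havcr2-positive cells, and the part of depth in these ratios was not tested.

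Between the libraries, Gzma and Gzmb were furthest apart in the Tcf7-positive CD8 T cells. Gzma was at 762 CPM (290 UMIs in 17 of 39 cells) under anti-PD-1 and at 28.4 CPM (7 UMIs in 4 of 24 cells) under isotype, a log2 ratio of 4.74 (3.68 to 6.07). Gzmb was at 880 CPM (24 of 39 cells) and 130 CPM (5 of 24 cells), a ratio of 2.76 (2.23 to 3.33). In Havcr2-positive cells the ratio was 0.74 (0.59 to 0.89) for Gzmb, 0.20 (0.02 to 0.39) for Gzma and 1.04 (0.53 to 1.60) for Prf1. In cells with neither gene (93 and 26 cells) it was 1.46 for Gzmb and 1.34 for Gzma. Gzmk lay between 0.65 and 0.82 in all 3 states. Whether the ratios differ between the states was not tested.

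**Figure D3:**
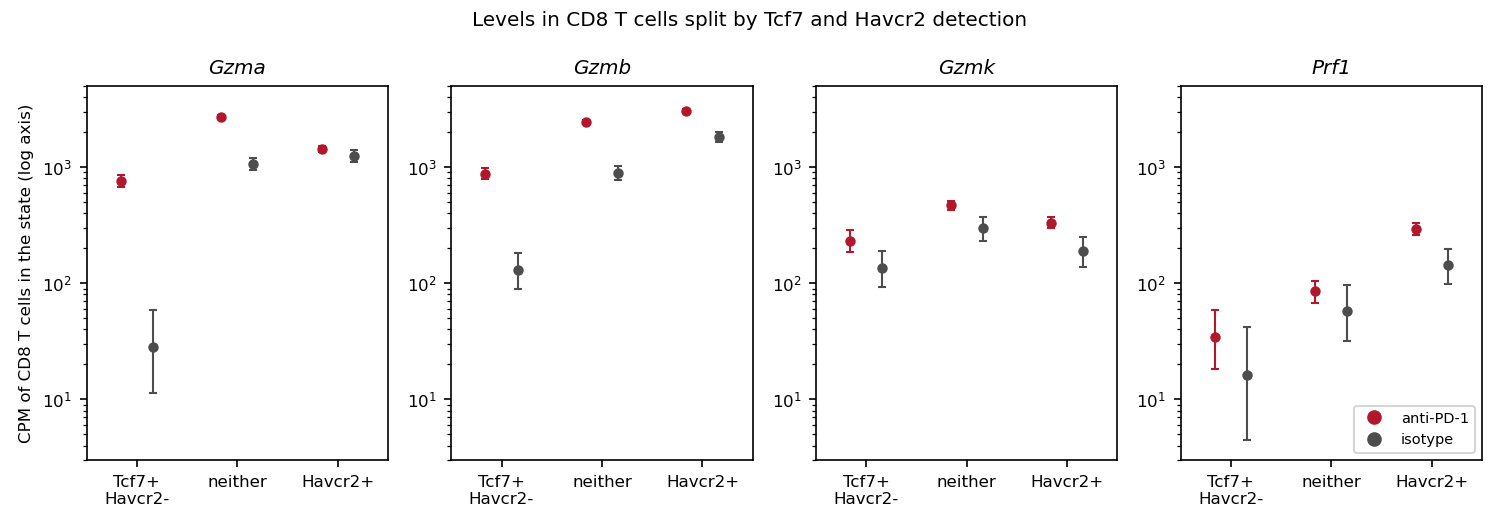
Levels of 4 genes in CD8 T cells with Tcf7 and no Havcr2, with neither, and with Havcr2, in CPM of the state on a log axis with 95% Poisson intervals, for the anti-PD-1 library (red, left) and the isotype library (grey, right). The libraries stand furthest apart for Gzma in Tcf7-positive cells, at 762 and 28.4 CPM.

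Granzymes were found together in the same CD8 T cells. At least 3 of the 10 genes were detected in 66.7% of anti-PD-1 and 32.4% of isotype CD8 T cells, and none in 8.33% and 25%. Gzmb was present in 96 of 98 anti-PD-1 cells with Gzma (98.0%) against 64 of 94 cells without it (68.1%). In the isotype library it was in 14 of 19 (73.7%, 48.8% to 90.9%) against 23 of 49 (46.9%, 32.5% to 61.7%), with intervals that overlapped. Of cells with Gzmk, 93.3% in the anti-PD-1 and 77.4% in the isotype library also had Gzmb, against 59.6% and 35.1% of cells without Gzmk. Prf1 was in 56.9% (48.8% to 64.7%) and 43.2% (27.1% to 60.5%) of cells with Gzmb. In cells without Gzmb it was in 34.4% (18.6% to 53.2%) and 16.1% (5.45% to 33.7%), so the intervals overlapped in both libraries. Prf1 was not more frequent in cells with Gzma (52.0% and 21.1%) than in cells without (54.3% and 34.7%). Cells with Gzmb had a median of 11252 UMIs against 6426 in cells without it in the anti-PD-1 library, and 8321 against 7630 in the isotype library. Depth therefore moved with these shares, and its part in them was not tested.

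Conventional CD4 T cells split the family by level per gate total: Gzmk, Prf1 and Gzmb rose under anti-PD-1 and Gzmc fell. Gzma, also past the call size, rested on too few cells to give a direction. Of 6 members that could be read, 4 were called higher and 1 lower, where 2.7% of 9866 genes were called higher and 1.64% lower. Gzmk had 474 UMIs (254 CPM) in 56 of 172 anti-PD-1 cells (32.6%, 25.6% to 40.1%) and 112 UMIs (72.2 CPM) in 23 of 193 isotype cells (11.9%, 7.71% to 17.3%), a log2 ratio of 1.81 (1.51 to 2.12). After thinning it was in 12.2% and 2.60% of cells. Prf1 had 102 UMIs in 31 anti-PD-1 cells (18.0%) and 16 UMIs in 9 isotype cells (4.66%), a ratio of 2.40 (1.64 to 3.26), and 2.13 without its highest cell, which held 39 UMIs. Both genes were thus higher in level and in unthinned share of cells, and Gzmk also after thinning. After thinning Prf1 was in 2.33% (0.637% to 5.85%) and 1.04% (0.126% to 3.71%) of cells, so at equal depth its intervals overlapped. The median depth was 8624.5 UMIs per conventional CD4 T cell under anti-PD-1 against 6525 under isotype. The isotype share of Prf1 was not apart from that in B cells.

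Gzmb in conventional CD4 T cells had 757 UMIs (405 CPM) in 52 anti-PD-1 cells (30.2%, 23.5% to 37.7%) and 303 UMIs (195 CPM) in 39 isotype cells (20.2%, 14.8% to 26.6%), a log2 ratio of 1.05 (0.86 to 1.25). It was 0.50 with cells thinned and 0.39 in non-cycling cells. After thinning Gzmb was in 15.7% (10.6% to 22.0%) and 10.9% (6.90% to 16.2%) of cells, so its shares overlapped with and without thinning. Gzma rested on 8 and 3 cells, with 55 of 100 anti-PD-1 and 30 of 32 isotype UMIs in 1 cell each. Its ratio of 1.38 (0.79 to 2.00) turned to -2.36 in non-cycling cells and was 4.22 without the highest cell of each library.

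Gzmc went the opposite way, with 323 UMIs (173 CPM) in 14 anti-PD-1 cells (8.14%, 4.52% to 13.3%) and 1590 UMIs (1025 CPM) in 33 isotype cells (17.1%, 12.1% to 23.2%), a log2 ratio of -2.57 (-2.75 to -2.39). The highest cell held 175 and 536 of these UMIs, and without it in each library the ratio was -3.09. The 3 highest cells held 77.7% and 68.1%. The intervals of the shares of cells overlapped, also after thinning, at 3.49% (1.29% to 7.44%) and 9.90% (6.06% to 15.0%). Of cells with Gzmc, 64.3% in the anti-PD-1 and 39.4% in the isotype library also had Gzmb, against 27.2% and 16.2% of cells without. Gzmf had 27 UMIs in 1 anti-PD-1 cell and 15 UMIs in 3 isotype cells. With Gzmc holding most of the isotype UMIs, the 10 genes summed to 955 CPM under anti-PD-1 and 1333 CPM under isotype, a log2 ratio of -0.48 (-0.57 to -0.39). It was -0.19 without the cell with most UMIs of the genes in each library. The NK genes summed to 4.28 and 3.87 CPM in these cells, with Ncr1, Klrb1c, Klra8 and Klra4 at 0 in both libraries.

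Gzmk and Gzmc kept their opposite directions in each state of conventional CD4 T cells set by Tcf7 and Havcr2. In Tcf7-positive cells without Havcr2 (28 anti-PD-1 and 44 isotype cells) Gzmk had 72 and 16 UMIs (2.44, 1.64 to 3.32), of which 44 and 15 were in 1 cell. In Havcr2-positive cells (69 and 51 cells) it had 291 UMIs in 36 cells and 57 UMIs in 9 cells (1.55, 1.13 to 1.98), and its ratio was 1.54 in cells with neither gene (75 and 98 cells). The ratio of Gzmc was -3.81 in Tcf7-positive, -0.91 in Havcr2-positive and -4.62 in cells with neither. In the isotype library 1052 of its 1590 UMIs were in cells with neither gene, 536 of them in 1 cell. Gzmk was thus spread over many Havcr2-positive cells, while Gzmc was held by few cells in each state.

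**Figure D4:**
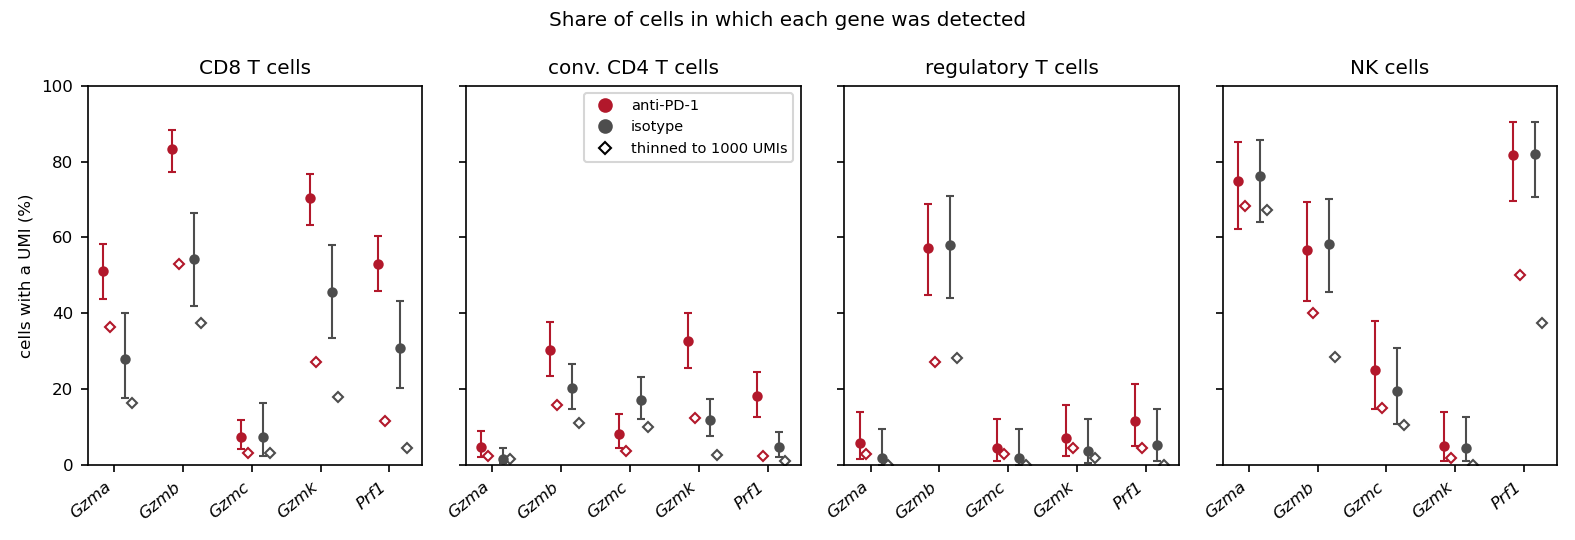
Percent of cells with at least 1 UMI of each gene in 4 gates, with exact 95% intervals, for the anti-PD-1 library (red, left) and the isotype library (grey, right); diamonds are the shares after each cell was thinned to 1000 UMIs. In CD8 T cells Gzma, Gzmb, Gzmk and Prf1 lie higher under anti-PD-1, while in NK cells the pairs lie close together before thinning.

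In regulatory T cells Gzmb fell in level per gate total, while its share of positive cells was close in both libraries. It had 439 UMIs (727 CPM) in 40 of 70 anti-PD-1 cells (57.1%, 44.7% to 68.9%) and 787 UMIs (1562 CPM) in 33 of 57 isotype cells (57.9%, 44.1% to 70.9%), a log2 ratio of -1.10 (-1.28 to -0.93). The 3 highest cells held 30.8% of the anti-PD-1 UMIs and 73.2% of the isotype UMIs. The ratio was -0.78 without the highest cell of each library, -0.43 with cells thinned and -0.20 as a mean over cells. Prf1 was called higher, with 37 UMIs in 8 cells and 4 UMIs in 3 cells (2.95, 1.47 to 4.90), but 29 of the 37 were in 1 cell, and without the highest cell of each library the interval ran from -0.59 to 5.01. Of 3 members that could be read, 1 was called higher and 1 lower, where 3.82% of 7799 genes were called higher and 2.28% lower. Myeloid genes summed to 333 CPM in anti-PD-1 and 83.4 CPM in isotype regulatory T cells, and at a myeloid limit of 0.25% the Gzmb ratio was -1.07.

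Unresolved T cells and γδ T cells gave opposite directions for Gzma and Gzmb. In unresolved T cells 3 of 5 readable members were called higher and 1 lower (5.13% and 1.74% of 8911 genes). Gzma had 1144 UMIs in 14 anti-PD-1 cells and 159 UMIs in 12 isotype cells (2.60, 2.36 to 2.85), Gzmb 852 UMIs in 42 and 275 in 29 cells (1.38, 1.19 to 1.58), and Prf1 89 UMIs in 14 and 19 in 12 cells (1.98, 1.25 to 2.78). Gzmc had 135 UMIs, all in 1 anti-PD-1 cell, and 673 UMIs in 13 isotype cells (-2.57, -2.84 to -2.30). Of the Gzma UMIs 550 were in 1 anti-PD-1 cell. In γδ T cells 0 of 4 readable members were called higher and 3 lower (3.14% and 2.83% of 5090 genes). Gzmb had 79 UMIs in 17 of 32 anti-PD-1 cells and 263 UMIs in 18 of 40 isotype cells (-1.38, -1.76 to -1.01), with 127 of the isotype UMIs in 1 cell. Gzma had 40 and 449 UMIs, in 3 cells each (-3.13), and Gzmc 4 and 21 UMIs (-2.03, -4.04 to -0.47).

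NK cells held granzymes or perforin in nearly every cell of both libraries. A UMI of at least 1 of the 10 genes was in 93.3% of anti-PD-1 and 94.0% of isotype NK cells. At least 3 of the genes were found in 53.3% and 56.7%. Prf1 was in 49 of 60 cells (81.7%, 69.6% to 90.5%) and 55 of 67 cells (82.1%, 70.8% to 90.4%), and Gzma in 45 (75%, 62.1% to 85.3%) and 51 (76.1%, 64.1% to 85.7%). Their levels were 838 and 622 CPM for Prf1 (0.43, 0.22 to 0.64) and 5333 and 3610 CPM for Gzma (0.56, 0.48 to 0.65). Gzmb was at 1803 and 1321 CPM, in 34 and 39 cells (0.45, 0.31 to 0.59). None of these 3 passed the size required for a call over the whole gate. For Gzmb that value hung on single cells: 1 cell held 38.9% of its anti-PD-1 and 56.3% of its isotype UMIs. The log2 ratio was 2.26 (2.02 to 2.51) in non-cycling and -2.49 (-2.91 to -2.09) in cycling NK cells (7 anti-PD-1 and 11 isotype cells). The highest isotype cell held 416 of the 578 Gzmb UMIs of the cycling isotype cells, so the split by cycling is not separate from that cell. Over the whole gate the ratio was 0.88 without the highest cell of each library and 1.16 with cells thinned. Of NK cells with Gzmb, 88.2% in the anti-PD-1 and 92.3% in the isotype library also had Prf1. Of NK cells without Gzmb, 73.1% and 67.9% had it, and the intervals overlapped in both libraries.

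The C to G granzymes of NK cells sat in a handful of cells. Gzmc had 2607 UMIs in 15 anti-PD-1 NK cells and 2124 UMIs in 13 isotype NK cells (0.41, 0.33 to 0.50), and 27.4% and 73.3% of them were in 1 cell. Its log2 ratio was 4.08 in non-cycling and -3.90 in cycling NK cells, where the highest isotype cell held 1557 of the 1992 isotype UMIs. Without the highest cell of each library the ratio was 1.78. Gzmd had 799 UMIs in 3 anti-PD-1 NK cells and 0 in isotype NK cells, at least 289-fold higher against a floor of 3 counts over the isotype gate, with a 95% interval of the log2 ratio that starts at 7.87. Gzmg had 330 UMIs in 2 anti-PD-1 cells and 0 in isotype cells, at least 119-fold higher on the same floor, with an interval that starts at 6.59. Gzme had 291 UMIs in 3 anti-PD-1 cells and 1 UMI in isotype cells. In the NK gate 9 members could be read, and these 3 were called higher and Gzmm lower (3 and 13 UMIs, -2.0, -4.45 to -0.13), where 3.17% of 7327 genes were called higher and 1.38% lower. A call on 2 or 3 cells compares those cells and not the libraries. Myeloid genes summed to 211 CPM in anti-PD-1 and 30.4 CPM in isotype NK cells, and at a myeloid limit of 0.25% the summed ratio of the 10 genes stayed at 0.75. Cycling cells were 11.7% and 16.4% of the gate. In non-cycling NK cells, which leave out the highest isotype cell, the summed ratio was 2.04.

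Over all kept cells the spread of each gene differed widely. Gzmk was the most dispersed by its highest cell, which held 3.21% of 1587 UMIs under anti-PD-1 and 7.29% of 343 under isotype, and it was found in 232 and 67 cells. Gzmb was in 380 and 248 cells, and 31 and 9 cells were enough to hold 50% or more of its UMIs. Gzma was in 188 and 100 cells, with 17 and 11 cells holding that share. Gzmd, Gzme, Gzmf and Gzmg were found in 2 to 8 cells of each library, and 1 cell held 55.1% to 84.5% of each under anti-PD-1 and 99.5% to 99.9% under isotype. For Prf1 the highest cell held 6.53% of 1103 UMIs under anti-PD-1 and 41.3% of 820 under isotype.

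**Figure D5:**
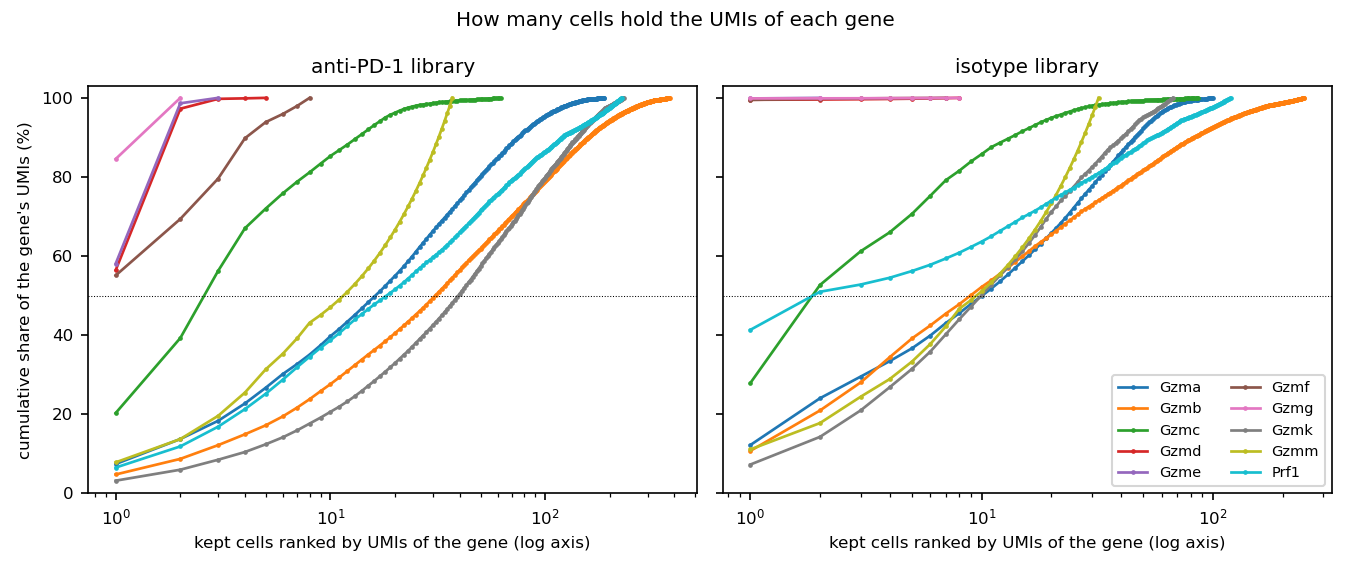
Cumulative percent of each gene's UMIs against the number of kept cells, ranked from the highest cell on a log axis, in the anti-PD-1 library (left) and the isotype library (right); the dotted line marks 50%. Gzmd, Gzme, Gzmf and Gzmg start above 55% at the first cell under anti-PD-1 and above 99% under isotype, while Gzmk and Gzmb rise slowly.

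A single isotype cell accounted for most of the cluster granzymes of its library. It held 56379 UMIs, of which 13056 (23.2%) were from the 10 genes: 4927 of Gzmg, 3533 of Gzmf, 1752 of Gzmc, 1437 of Gzmd, 672 of Gzme, 396 of Gzmb and 339 of Prf1, with 0 of Gzma and Gzmk. With 1 UMI of Trac, 0 of the NK genes, 17 of Nkg7, 116 of Srgn, 434 of Spp1, 20 of Il2ra, 12 of Havcr2 and 12 of Ptprc, which encodes CD45, it met neither the T nor the NK gate, and its cell type is left unnamed. The highest anti-PD-1 cell lay in the NK gate and held 2501 member UMIs of 21267 (11.8%): 646 of Gzma, 597 of Gzmc, 452 of Gzmd, 362 of Gzmb, 279 of Gzmg, 118 of Gzme and 43 of Prf1. The 2 cells thus differed in their granzymes, the isotype cell lacking Gzma and the anti-PD-1 cell lacking Gzmf. The second highest anti-PD-1 cell, also in the NK gate, lacked Gzma as well.

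Outside the T and NK gates few cells held the genes, although the isotype cell above held most of the isotype UMIs of Gzmd, Gzme, Gzmf and Gzmg. At least 10 member UMIs were found in 303 anti-PD-1 and 161 isotype barcodes, of which 257 and 135 were in the T and NK gates, 29 and 12 were removed by doublet score and 17 and 14 were kept outside the gates. Of the last group 3 and 4 were in the basophil or mast gate, 8 and 3 had T or NK genes but exceeded the myeloid limit, and 6 and 6 had too few lineage genes. The basophil or mast gate held Gzmb in 5 of 8 cells (93 UMIs) and 4 of 8 cells (342 UMIs), a known transcript of basophils and some mast cells. Background differed by gene. Gzmb was in 0 of 53 anti-PD-1 and 1 of 52 isotype B cells (median depth 4414 and 3686 UMIs), and in 3 of 2133 and 2 of 2183 neutrophils (median depth 2171 and 2012 UMIs). Gzmk was in 0 B cells of either library. Gzma was in 2 of 53 anti-PD-1 and 2 of 52 isotype B cells (3.77% and 3.85%), and Prf1 in 1 of 53 and 3 of 52 (1.89% and 5.77%). The shares of cells with Gzma in conventional CD4 T cells (4.65% and 1.55%) and regulatory T cells (5.71% and 1.75%), and with Prf1 in isotype conventional CD4 (4.66%) and regulatory T cells (5.26%), are not apart from these. The shares alone cannot tell them from background. The comparison rests on few B cells, and 1 isotype B cell held 28 UMIs of the T cell gene Cd3e. In anti-PD-1 conventional CD4 T cells 5 of the 8 cells with Gzma had 2 or more UMIs of it.

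The pooled T and NK cells were made up differently in the 2 libraries. CD8 T cells were 30.4% of T and NK cells under anti-PD-1 and 12.4% under isotype. They held 65.6% and 22.4% of the pool's Gzmb UMIs, 52.0% and 17.4% of Gzma, 59.6% and 44.0% of Gzmk, and 37.1% and 11.4% of Prf1. NK cells held 32.7% and 62.7% of Gzma and 40.7% and 76.5% of Prf1. Over the whole pool the 10 genes summed to 3759 CPM under anti-PD-1 and 2633 CPM under isotype (0.51, 0.48 to 0.55). With the subsets weighted alike in both libraries the ratio was 0.59. Of the 10 members 5 were called higher (Gzmd, Gzme, Gzmf, Gzmg and Gzmk) and 1 lower (Gzmc), where 2.43% and 1.47% of 11604 genes were. All but Gzmk of the 5 rest on 2 to 5 anti-PD-1 cells, and with 1 T gene enough to enter the gate Gzmd, Gzme and Gzmf were at -1.41, -1.77 and -6.83. Of the members found in many cells, Gzmk had a ratio of 1.55 (1.38 to 1.72) and 1.10 with equal weights, Gzmb 0.97 and 0.76, Gzma 0.82 and 0.86, and Prf1 0.66 and 0.87. Gzmc had -1.06 (-1.13 to -1.0) and -0.53, but in non-cycling cells its ratio was 0.28 (0.20 to 0.37), in the other direction, and 1 cell held 34.8% of its isotype UMIs.

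Genes that fill, move and restrain the granules were called in CD8 T cells about as often as all genes, of which 2.8% were called higher and 1.35% lower, with a median log2 ratio of 0.10. Of 10 genes of granule content, granzyme processing and granzyme inhibitors 9 could be read, and 1 was called higher and 0 lower (median log2 ratio 0.29). The one called was Ctsl, a lysosomal protease (65 and 5 UMIs, 1.99, 0.70 to 3.66). Myeloid cells also express it, and the myeloid genes at 304 and 70.2 CPM moved with it; their part in the result was not tested. Ctsc, which activates granzyme precursors, was at 137 and 72.9 CPM (0.91, 0.49 to 1.36), Serpinb9, an inhibitor of granzyme B, at 219 and 118 CPM (0.89, 0.55 to 1.23), and Srgn, the proteoglycan that packs granzymes, at 1822 and 1597 CPM (0.19). Of 14 genes of granule transport and release 0 were called (median 0.30), with Nkg7, a granule membrane protein, at 2355 and 1777 CPM (0.41, 0.32 to 0.49). Of 4 death ligands 0 were called (median -0.39), with Fasl at 94.0 and 66.0 CPM (0.51, 0.05 to 0.99). Of 18 transcription factors and cytokine receptors 0 were called higher and 1 lower, Il18r1 (18.5 and 38.5 CPM, -1.05). Tbx21 was at 99.4 and 64.7 CPM (0.62, 0.16 to 1.10) and Eomes at 75 and 94.9 CPM (-0.34, -0.75 to 0.08), both T-box factors of killer cells.

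In conventional CD4 T cells, where 2.7% of all genes were called higher and 1.64% lower, 45 genes of the same lists could be read, with 1 called higher and 3 lower. The 1 called higher was Eomes, with 134 UMIs (71.7 CPM) under anti-PD-1 and 33 UMIs (21.3 CPM) under isotype (1.75, 1.19 to 2.35). Nkg7 was at 1770 and 927 CPM there (0.93, 0.84 to 1.02). Lta, encoding lymphotoxin alpha, fell, with 47.1 and 140 CPM (-1.58, -1.95 to -1.21), as did Ctsl (-1.19) and Serpinb9b (-1.91), a serpin. Lta was also called lower in γδ (-1.67) and unresolved T cells (-1.28). In regulatory T cells, where 3.82% and 2.28% of all genes were called higher and lower, Ctsc (1.27), Serpinb9 (1.02), Lamp1 (1.07), Zeb2 (1.20) and Stat5a (1.45) were called higher and Tnf (-1.26) and Irf4 (-1.68) lower. The myeloid genes moved with these calls, at 333 CPM with 7 of 7 detected under anti-PD-1 and 83.4 CPM with C1qa, C1qb and Csf1r at 0 under isotype, and their part in the result was not tested. In NK cells (3.17% and 1.38% of all genes called) Serpinb9b was called higher, with 219 and 55.4 CPM (1.98, 1.40 to 2.61), and Batf lower (-1.39). In γδ T cells (3.14% and 2.83%) Stx11 (1.11) and Tnf (1.12) were called higher, and in unresolved T cells (5.13% and 1.74%) Ctsl (-1.66) and Zfp683 (-2.42) lower. Gzmn, a further gene of the cluster, had 0 UMIs in all T and NK cells of both libraries.

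Across the 12 points of 6 gates and 2 libraries, the level of perforin followed granzyme A more closely than granzyme K. Pearson's r of log2(CPM + 10) was 0.81 between Prf1 and Gzma, 0.60 between Prf1 and Gzmb, 0.53 between Gzma and Gzmb and -0.12 between Prf1 and Gzmk. Among 5790 genes the patterns closest to Prf1 were those of Lta4h (0.94), Ube2d1 (0.94), Serpinb9 (0.93), Efhd2 (0.93) and Lrrk1 (0.93), and closest to Gzma those of Nedd4 (0.95), Gnl3 (0.94), Klrc1 (0.91), Stt3b (0.91) and Emc6 (0.91). Closest to Gzmk were Rabepk (0.94), Arpc4 (0.93), Etfb (0.93), Ccnb1 (0.92) and Nap1l1 (0.92), and closest to Gzmb Ptma (0.87), Tapbpl (0.85), Snx5 (0.82), Ubac2 (0.79) and 1700017B05Rik (0.78). These correlations describe 12 points that share 2 libraries and differ in depth, with no test.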

How the data were processed

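Transcripts were counted as UMIs by 10x 3′ v2 chemistry. The deposited matrices hold raw counts per gene and barcode, made by the authors with Cell Ranger, version 5.0.1 per the file headers and 2.1.1 per the submitters' processing notes, on mm10. Cells were kept with at least 500 UMIs, 200 genes and at most 10% mitochondrial UMIs. Scanpy 1.11.5 ran the doublet caller Scrublet, whose own threshold marked 0 cells, so scores over 0.25 were removed (313 anti-PD-1 and 288 isotype cells). Gates needed at least 2 lineage genes (T: Cd3d, Cd3e, Cd3g, Trac; NK: at most 1 of those and Ncr1, Klrb1c, Klre1, Klra8, Klra4), at most 0.5% myeloid UMIs and under 2 B cell genes. Counts were summed per gate and library. Intervals were exact (conditional binomial, Poisson, Clopper-Pearson; SciPy 1.17.1), shares were also taken at 1000 UMIs per cell, and scripts were tested on simulated data. With 1 library per group there are no p-values. The rule named all 10 members, the genes of 4 lists and the 5 highest correlations of 4 members, and the other genes given for the highest isotype cell were chosen after its values were seen. Members and lists were chosen with earlier results of these data known.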

Additional observations from a re-analysis of the deposited data

Results flagged for a closer look

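In 3 results the subsets moved in opposite directions between the libraries. The differences between subsets were not tested, since each rests on 1 library per antibody. For the 10 genes summed, the log2 ratio anti-PD-1 over isotype was 1.22 in CD8 T cells and -2.16 in γδ T cells, 3.38 apart. Gzma was higher in unresolved T cells (2.60) and lower in γδ T cells (-3.13), 5.73 apart. Gzmb was higher in unresolved T cells (1.38) and lower in γδ T cells (-1.38), 2.76 apart. The γδ values rest on 32 anti-PD-1 and 40 isotype cells, and 1 isotype cell held 544 of the 752 member UMIs of that gate (72.3%). For Gzma, 3 anti-PD-1 unresolved T cells held 93.9% of its UMIs there, and 1 isotype γδ T cell held 88.9%. Gzmb was in 53.1% of anti-PD-1 and 45% of isotype γδ T cells, the other way from its level. Values of the unresolved and γδ T gates without their highest cells were not taken.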

How the results depend on the processing

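No paired analysis was possible because each antibody has 1 library. All values are log2 ratios, anti-PD-1 over isotype, of the 10 genes summed. Of 68 values tried over 5 gates, 40 stayed inside the counting interval, 27 moved out of it and 1 reversed. In CD8 T cells (1.22) it was 0.67 thinned to 1000 UMIs, 0.77 as a mean of cells, 1.12 with the median ratio of genes with at least 50 UMIs set to 0, 0.86 in non-cycling cells and 1.37 without the highest cell. In NK cells (0.75) it was 1.04 thinned, 0.87 as a mean of cells, 0.68 with a myeloid limit of 1% and 0.67 with none, 0.89 without doublet removal, 0.70 with 1 NK gene enough, 2.04 in non-cycling cells and 0.95 without the highest cell. The highest isotype NK cell was cycling, so the non-cycling value also leaves it out. Over all T and NK cells (0.51) it was 0.71 thinned, 0.59 with equal subset weights, 0.69 as a mean of cells, 0.43 with the median ratio set to 0, 0.47 with no myeloid limit, 0.58 with 1 NK gene enough, 1.02 in non-cycling cells and 0.65 without the highest cell. With 1 T gene enough it was -0.55, since the isotype cell with 13056 member UMIs then entered by its 1 Trac UMI. In conventional CD4 T cells (-0.48) it was -0.61 as a mean of cells, -0.92 in non-cycling cells and -0.19 without the highest cell. In regulatory T cells (-0.95) it was -0.23 thinned, -0.13 as a mean of cells and -0.63 without the highest cell. For single genes 441 values were tried for 31 results: 354 stayed inside the interval, 79 moved out and 8, of ratios whose interval left out 0, reversed. The ratio of Gzmk in regulatory T cells, not called at -0.66, was 3.06 without its highest cells. Without the highest cell Gzmc in CD8 T cells was 2.26. In non-cycling cells Gzma in conventional CD4 T cells was -2.36, and over all T and NK cells Gzmc was 0.28 and Gzmf -0.98. With 1 T gene enough, Gzmd was -1.41, Gzme -1.77, Gzmf -6.83 and Prf1 -0.13 over all T and NK cells. Leaving out the highest cell and 1 NK gene enough were chosen after seeing the data. Except where stated, the cause was not tested. With 68 isotype CD8 T cells and genes at 10 to 20 UMIs, only large differences are detectable, and with 1 library per antibody the spread between mice is unknown.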
